A study of Mus musculus with 6 samples.

Results

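Exon use was examined in Clta, Ap2a1, Picalm and Eea1, 4 genes of the clathrin route of endocytosis. They were chosen by the authors' adjusted p-values: each has at least 1 exon bin in the authors' deposited tables of exons with altered use (adjusted p under 0.01), as do 702 genes in all. The values of these bins are therefore given as a description, without a test. Clta (bins 4 and 5), Ap2a1 (bin 8) and Picalm (bin 12) were listed after depletion of Ptbp1, and Eea1 (bin 15) after depletion of Pnky. An exon bin is an exon or a stretch of one, numbered within its gene from 0. These 5 bins were all used more in the knockdown than in the control.

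The libraries came from cells of the ventricular-subventricular zone, the stem cell niche of the postnatal mouse forebrain, taken from C57/B6 mice at postnatal day 5 to 7 and cultured with 5% serum and with EGF and FGF, each at 20 ng/mL. All 6 libraries came from cells transduced with the PSICO-R vector, which carries GFP or mCherry, and sorted for that fluorescence. Its short hairpin RNA targeted luciferase in the 2 control libraries (shCtrl), the noncoding transcript Pnky in 2 others (shPnky) and Ptbp1 in the remaining 2 (shPtbp1). Nothing in the labels tells whether replicate libraries stem from different animals or cultures, so the authors' p-values rest on a spread that may be technical.

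In clathrin-mediated endocytosis, the adaptor complex AP-2 gathers cargo at the plasma membrane and recruits clathrin, whose heavy and light chains assemble into a cage around the forming vesicle. Clta encodes light chain a, Ap2a1 an alpha subunit of AP-2, and Picalm a clathrin assembly protein that binds membrane lipid and small SNARE cargo. After uncoating, vesicles fuse with early endosomes, where EEA1, an effector of RAB5, tethers the membranes. Clathrin light chains and the AP-2 alpha subunit are known to have longer forms in brain, made by including extra exons. PTBP1 binds pyrimidine-rich RNA and keeps many neuronal exons out of messages in cells other than neurons, and Pnky is a neural long noncoding RNA that associates with PTBP1.

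The deposited tables name bins by number and hold no coordinates. To see which exons the numbers could stand for, the exons of each gene in the GENCODE M21 annotation (build GRCm38; the authors' notes name mm9) were numbered in 24 ways. The numbering used was first noticed on the bins of Clta, Ap2a1 and Picalm and then compared with the others on bins of other genes. Merging the exons of transcripts linked to a RefSeq entry and counting them from 0 by ascending coordinate placed 20.4% of 926 bins of other genes in the shPtbp1 table on cassette exons, meaning exons that another coding transcript of the gene skips. The other 23 numberings placed 3.6% to 19.7% of them there. In the shPnky table, which holds the Eea1 bin, the same numbering placed 7.8% of 245 bins on cassette exons, and 3 others placed more, up to 9.4%. Its numbers fell within the exon count of the gene for 98.3% of the shPtbp1 and 95.9% of the shPnky bins, where other numberings reached up to 100%. Under that numbering, all 4 bins of Clta, Ap2a1 and Picalm fell on coding cassette exons. The 23 other numberings put 0 to 3 of the 4 on such an exon, and the authors' own numbering is not given in the sources used here, so the exons below are an assignment and not a record. The numbering with 19.7%, merged exons of transcripts tagged basic, kept the exons of Ap2a1 and Picalm but not those of Clta. It put Clta bin 4 on an exon of 112 bases that is no cassette exon, and bin 5 on the cassette exon of 54 bases. The next numbering, with 18.8%, merged exons of protein-coding transcripts by ascending coordinate and placed the Clta bins in the same way. It moved Ap2a1 bin 8 to an exon of 161 bases and Picalm bin 12 to one of 104 bases, neither a cassette exon. The exons of Clta, Ap2a1 and Picalm are thus all unsettled. Under the numbering used here, that of transcripts linked to a RefSeq entry, bin 5 of Src fell on a cassette exon of 18 bases. Bin 4 of Ptbp2 fell on an exon of 34 bases that did not count as a cassette exon by the definition above. Ptbp2 and Src, the latter picked here after its values were seen, are textbook cases of genes with a short exon that PTBP1 represses.

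The sequences of the assigned exons are shown because they are the coding stretches that the listed bins would stand for. Capitals mark the exon, and lower case marks 20 bases of the neighbouring exon on each side, as spliced in a GENCODE M21 transcript that holds it. Clta bin 4 was assigned to chr4:44030215-44030268 (GRCm38, plus strand), 54 bases, and Clta bin 5 to chr4:44031400-44031435, 36 bases. Ap2a1 bin 8 was assigned to chr7:44903462-44903527 (minus strand), 66 bases, and Picalm bin 12 to chr7:90182219-90182368 (plus strand), 150 bases. Eea1 bin 15 was assigned to chr10:96021607-96021720 (plus strand), 114 bases.
Clta bin 4: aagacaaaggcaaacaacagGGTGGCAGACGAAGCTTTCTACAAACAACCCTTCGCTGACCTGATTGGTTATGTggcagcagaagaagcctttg
Clta bin 5: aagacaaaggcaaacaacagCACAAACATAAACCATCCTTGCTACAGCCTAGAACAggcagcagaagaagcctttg
Ap2a1 bin 8: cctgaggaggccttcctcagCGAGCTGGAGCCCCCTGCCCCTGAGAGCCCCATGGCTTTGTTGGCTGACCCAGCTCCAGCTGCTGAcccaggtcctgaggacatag
Picalm bin 12: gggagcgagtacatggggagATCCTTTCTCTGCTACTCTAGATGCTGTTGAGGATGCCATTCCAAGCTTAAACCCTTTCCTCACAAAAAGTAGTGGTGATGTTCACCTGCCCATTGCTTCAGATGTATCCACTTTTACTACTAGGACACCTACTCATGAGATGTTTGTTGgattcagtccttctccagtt
Eea1 bin 15: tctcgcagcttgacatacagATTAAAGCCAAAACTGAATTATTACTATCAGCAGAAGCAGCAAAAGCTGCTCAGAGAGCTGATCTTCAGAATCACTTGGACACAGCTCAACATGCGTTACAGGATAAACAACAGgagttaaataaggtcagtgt

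The lower-case flanks of the Clta sequences are the same, because each shown transcript holds only 1 of the neighbouring cassette exons. All 5 exons were wholly coding, and each length was a multiple of 3, so that inclusion or skipping keeps the reading frame. The Clta exons would add 18 and 12 codons, the Ap2a1 exon 22, and the Picalm exon 50. Each of the Clta exons is held by 2 and skipped by 4 of the 6 coding transcripts of the gene. The Ap2a1 exon is held by 2 and skipped by 3 of 5, and the Picalm exon is held by 4 and skipped by 4 of 9. The Eea1 exon is exon 16 of 29 in the only annotated coding transcript. Clta and Ap2a1 had no other coding cassette exon, whereas Picalm had another, of 24 bases, whose bin 17 was not listed. GC content was 48.1% and 41.7% in the Clta exons, 66.7% in the Ap2a1 exon, 42.7% in the Picalm exon and 40.4% in the Eea1 exon.

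**Figure D1:**
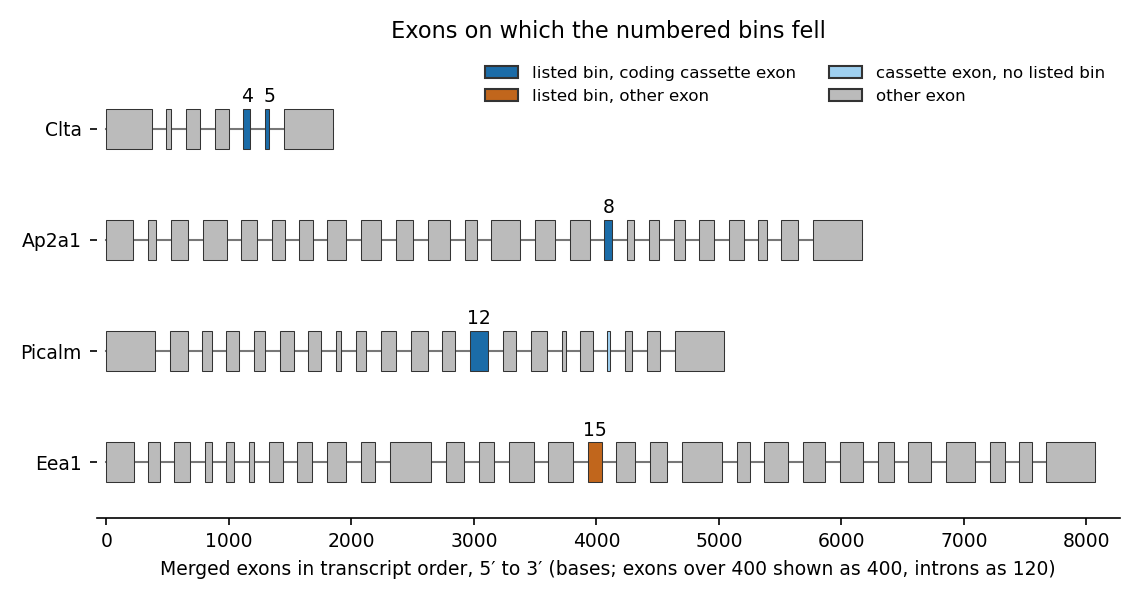
Merged exons of Clta, Ap2a1, Picalm and Eea1 in transcript order, with exon widths to scale in bases up to a cap and introns drawn at a fixed width. Numbers give the listed bins: dark blue exons are coding cassette exons with a listed bin, the light blue Picalm exon is a cassette exon without one, and the orange Eea1 exon is not a cassette exon.

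The light chain gene was examined first. For bin 4 of Clta (Entrez 12757), shCtrl gave 75 and 66 reads and shPtbp1 gave 262 and 248. Scaled to the same total of listed reads, these were 69.3 ± 0.92 and 259 ± 6.53 reads (SD, n = 2), a log2 count change of 1.90. For bin 5, shCtrl gave 77 and 77 reads and shPtbp1 gave 385 and 418, or 75.9 ± 5.85 and 409 ± 29.3 scaled reads (SD, n = 2), a log2 count change of 2.42. Both shPtbp1 libraries lay far above both shCtrl libraries for each bin, and the groups did not overlap. In the authors' deposited table, the log2 fold of usage, taken from values fitted to the use of a bin within its gene, was 1.01 for bin 4 and 1.27 for bin 5, with DEXSeq adjusted p-values of 8.67e-47 and 1.73e-46. These fitted values lie on a compressed scale: in the authors' deposited table they were 13.2 and 26.6 for Clta bin 4, with a mean of 163 reads, and 282 in both groups for Vim bin 5 in shPnky, with a mean of 212507. The listed fold is therefore no plain ratio of relative use, and the log2 count changes of the 5 bins were 1.39 to 2.02 times their listed folds. The counts were scaled to totals of listed reads and not to the reads of each gene. Count changes therefore mix expression of the gene with use of the bin. For Ahnak bin 2 in shPtbp1, the log2 count change was 1.99 at a listed log2 fold of usage of 0.24.

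The 2 bins of Clta did not rise in step. Of the reads of the pair, bin 4 took 49.3% and 46.2% in shCtrl but 40.5% and 37.2% in shPtbp1. The mean share was 47.7% ± 2.25 in shCtrl and 38.9% ± 2.30 in shPtbp1 (SD, n = 2), a difference of -8.88 percentage points in favour of bin 5. The shares of the groups did not overlap, and the difference was larger than the spread within either group. Both bins were nevertheless higher in shPtbp1, and Clta had only these listed bins, so this share describes the balance between them and not their inclusion.

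The largest change of the 5 bins belonged to the adaptor subunit. Bin 8 of Ap2a1 (Entrez 11771) had 41 and 32 control reads, against 305 and 302 after depletion of Ptbp1. The scaled reads were 35.8 ± 3.50 and 309 ± 2.06 (SD, n = 2), an 8.53-fold higher mean and a log2 count change of 3.09. The replicates lay within a few reads of each other on each side of this gap. The authors' deposited table gives fitted usage values of 9.24 in shCtrl and 29.7 in shPtbp1, a log2 fold of usage of 1.68, with a DEXSeq adjusted p of 1.02e-101. By adjusted p this bin ranked 16 of 958 listed shPtbp1 bins, and by fold 11 of the 945 with a listed fold, although by mean reads it ranked 773.

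Picalm differed in scale. Bin 12 of Picalm (Entrez 233489) had 381 and 326 control reads, against 481 and 508 in shPtbp1. Its scaled reads were 347 ± 11.5 and 503 ± 26.3 (SD, n = 2), a log2 count change of 0.53, where the median over all listed shPtbp1 bins was 0.13 on this scale. The groups again did not overlap, but the shCtrl libraries already held most of the level seen after the knockdown. In the authors' deposited table the log2 fold of usage was 0.38, with a DEXSeq adjusted p of 1.04e-19, and the bin ranked 138 of 945 by fold. The bins of the 3 genes thus ran from a 1.45-fold higher count in Picalm through 3.72-fold and 5.35-fold in Clta to 8.53-fold in Ap2a1, and in this order no neighbouring pair was compared by a test. These are folds of bin counts, without correction for expression of the gene, and not folds of exon inclusion.

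**Figure D2:**
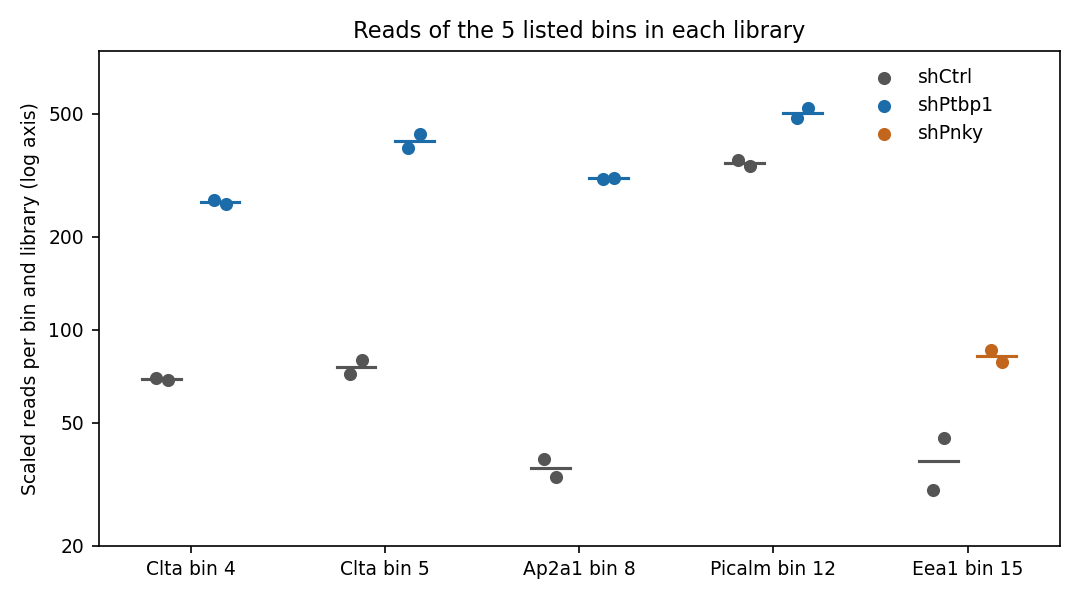
Scaled reads (log axis) of the 5 listed bins in each library, with points for libraries and short lines for group means of 2 libraries. Every knockdown library lies above the shCtrl libraries of its comparison, with the widest gap in Ap2a1 bin 8 (35.8 to 309) and the narrowest in Picalm bin 12 (347 to 503).

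Eea1 was the gene of the endosome step and was listed in the other comparison only. Bin 15 of Eea1 (Entrez 216238) had 31 and 41 control reads, against 103 and 68 in shPnky. Scaling brought the shPnky libraries together, at 85.9 and 78.9 reads, while the shCtrl libraries lay at 30.3 and 44.7. The means were 37.5 ± 10.1 and 82.4 ± 4.93 scaled reads (SD, n = 2), a log2 count change of 1.12 without overlap of the groups. In the authors' deposited table the log2 fold of usage was 0.56, with a DEXSeq adjusted p of 0.000508, rank 141 of 249 by adjusted p and 4 of 249 by fold. The bin had the fewest reads of the 5, a mean of 60.8 per library, and the largest spread between its shCtrl libraries relative to the mean.

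Few of all bins were called. The authors called 0.598% of 160290 tested bins in shPtbp1, 0.322% with higher use, and 0.155% of 160603 in shPnky, 0.0741% with higher use. The genes were taken from these calls, so their 5 of 5 bins with higher use cannot be read against those rates. Separation of the replicates was common among listed bins: all scaled shPtbp1 counts lay above all shCtrl counts in 53.8% of the listed shPtbp1 bins, and the same held in 44.2% of the listed shPnky bins. No bin of the 4 genes was in both tables, and their bins that were not called in a table were not analysed here. The comparisons share the shCtrl libraries, and all 118 bins that are in both tables carry identical shCtrl counts.

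The targeted gene and cell type markers were looked up among the listed bins. Reads in bin 13 of Ptbp1 were 22334 and 19594 in shCtrl but 4967 and 4961 in shPtbp1, a log2 count change of -2.03. No bin of Pnky was listed, so its depletion could not be checked. Of 12 stem cell and astrocyte markers, 5 were called in shPtbp1 (usage of the leading bin higher for 3, lower for 2) and 3 in shPnky (higher for 1, lower for 2). Control reads of the shPtbp1 bins were 54482 and 49186 for Slc1a2, a glutamate transporter, 39928 and 34852 for Gfap, the astrocyte filament protein, 9905 and 8879 for Egfr, 9328 and 7897 for Aldoc, and 56 and 51 for Prom1, so coverage differed widely among these markers. Aldoc bin 0, of the astrocyte enzyme aldolase C, went to 16298 and 15049 reads (log2 count change 0.91), whereas Prom1 (0.38), Slc1a2 (-0.0043), Egfr (-0.09) and Gfap (-0.21) had smaller count changes. The Aldoc count thus moved together with the bins of Clta, Ap2a1 and Picalm, and its part in them was not tested. Of 34 markers of neurons, oligodendrocyte lineage, microglia, endothelium and fibroblasts, Syt1, a synaptic vesicle calcium sensor, had a called bin in shPtbp1 and none had one in shPnky. Only bins with altered use are listed, so a marker without a called bin may still be expressed. These counts of markers therefore do not show which cell types were present. The Syt1 bin went from 12 and 12 reads to 26 and 30, so a neuronal transcript at low counts moved together with the bins of Clta, Ap2a1 and Picalm, and its part in them was not tested. In bulk RNA of this kind a change in use within cells and a change in the share of cells that use an exon cannot be told apart. Listed reads summed to between 3514859 and 3920040 per library in the shPtbp1 table and between 1727096 and 2403866 in the shPnky table, which are sums over called bins and not library sizes.

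Other genes of the same route were then counted, from lists of 102 gene symbols, which hold a few synonyms such as Zfyve20 and Rbsn. In shPtbp1, 7 had a called bin, as had 602 genes in all. The number of genes tested is not given in the sources used here, so counts of called genes have no gene-level background rate, and the shares of called bins above are not one. Judged by the leading bin (smallest adjusted p in the gene), 3 of them were higher and 4 lower. Over all called shPtbp1 genes with a listed fold, the leading bin was higher for 283 and lower for 307. In shPnky none of the 102 was called. The median log2 fold of usage of the 7 leading bins in shPtbp1 was -0.08. Over all listed shPtbp1 bins it was 0.04, but that set holds several bins of some genes. None of the 6 other coat and AP-2 genes was called, and these include the heavy chain gene Cltc, the second light chain gene Cltb and the second alpha subunit gene Ap2a2. None of the 39 early endosome symbols was called either. The calls lay among 32 adaptor and assembly genes, with 2, and 25 genes for membrane bending, scission and uncoating, with 5.

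Aak1, the kinase that phosphorylates the mu subunit of AP-2, showed the largest rise of these. Its bin 16 went from 3 and 6 reads to 42 and 41, with a log2 fold of usage of 1.69 and a DEXSeq adjusted p of 3.15e-13 in the authors' deposited table. Fnbp1 bin 6, of a membrane-bending F-BAR protein, went from 112 and 94 reads to 347 and 443, and fell on a cassette exon of 15 bases. Cttn bin 7, of the actin-binding protein cortactin, went from 135 and 134 to 210 and 226 reads and fell on a cassette exon of 111 bases. Their log2 folds of usage were 0.79 and 0.34 in the authors' deposited table. The groups did not overlap in any of these 3 bins.

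The 4 lower leading bins were those of Bin1, Pacsin2, Dnm2 and Eps15l1. Bin1 bin 11, of the membrane-curving protein amphiphysin 2, went from 910 and 876 reads to 346 and 364. Its log2 fold of usage was -0.43 with a DEXSeq adjusted p of 1.05e-12 in the authors' deposited table, and it fell on a cassette exon of 129 bases. The other listed bin of Bin1, bin 6, also fell on a cassette exon but went the other way. Its log2 fold of usage was 0.63, with a DEXSeq adjusted p of 9.19e-12, so Bin1 counts as lower by its leading bin only. Pacsin2, another F-BAR protein, Dnm2, the scission GTPase dynamin 2, and Eps15l1, an adaptor that binds AP-2, had log2 folds of usage of -0.25, -0.24 and -0.08 in the authors' deposited table. Use of a listed bin thus went in both directions within the wider route. Leading bins over all called shPtbp1 genes were also divided, with 283 higher and 307 lower. Of the 7 leading bins of the route, 4 fell on cassette exons.

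Genes known for exons used differently in neurons were set beside them. Of 60 such gene symbols, of which Pkm and Pkm2 are synonyms, 28 had a called bin in shPtbp1. This was out of 602 called genes and again without a background rate per gene. The leading bin was higher for 15 and lower for 13, against 283 higher and 307 lower over all called genes. Of the 28 leading bins, 16 fell on cassette exons, and the median log2 fold of usage of the 28 was 0.24. Bin1, Cttn and Dnm2 are on this list as well. By adjusted p the higher bins reported here were headed by Rtn4 bin 3, of the reticulon Nogo, Aplp2 bin 4, of an amyloid precursor-like protein, Rufy3 bin 12, Rapgef1 bin 12, of a guanine nucleotide exchange factor, and Camk2b bin 6, of a calcium/calmodulin-dependent kinase. Their log2 folds of usage were 0.37, 0.31, 0.31, 1.61 and 1.05 in the authors' deposited table. Among these 5, Rapgef1 bin 12 (log2 count change 2.81) lay nearest to Ap2a1 bin 8 (3.09) in size, and Camk2b bin 6 (1.92) lay nearest to Clta bin 4 (1.90).

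The lower bins of this list were led by Ncam1 bin 0, of a neural adhesion molecule, Tpm1 bin 0 and Tpm3 bin 5, of tropomyosins, Map4 bin 13, of a microtubule-associated protein, Kif1b bin 27, of a kinesin, and Bin1 bin 11. Their log2 folds of usage were -0.61, -0.98, -0.50, -0.43, -0.23 and -0.43 in the authors' deposited table. Except for that of Bin1, these bins did not fall on cassette exons. In shPnky, 5 genes of the list were called, Camta1 higher and Kif1b, Rtn4, Tpm1 and Nrcam lower, with a median log2 fold of usage of -0.15.

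**Figure D3:**
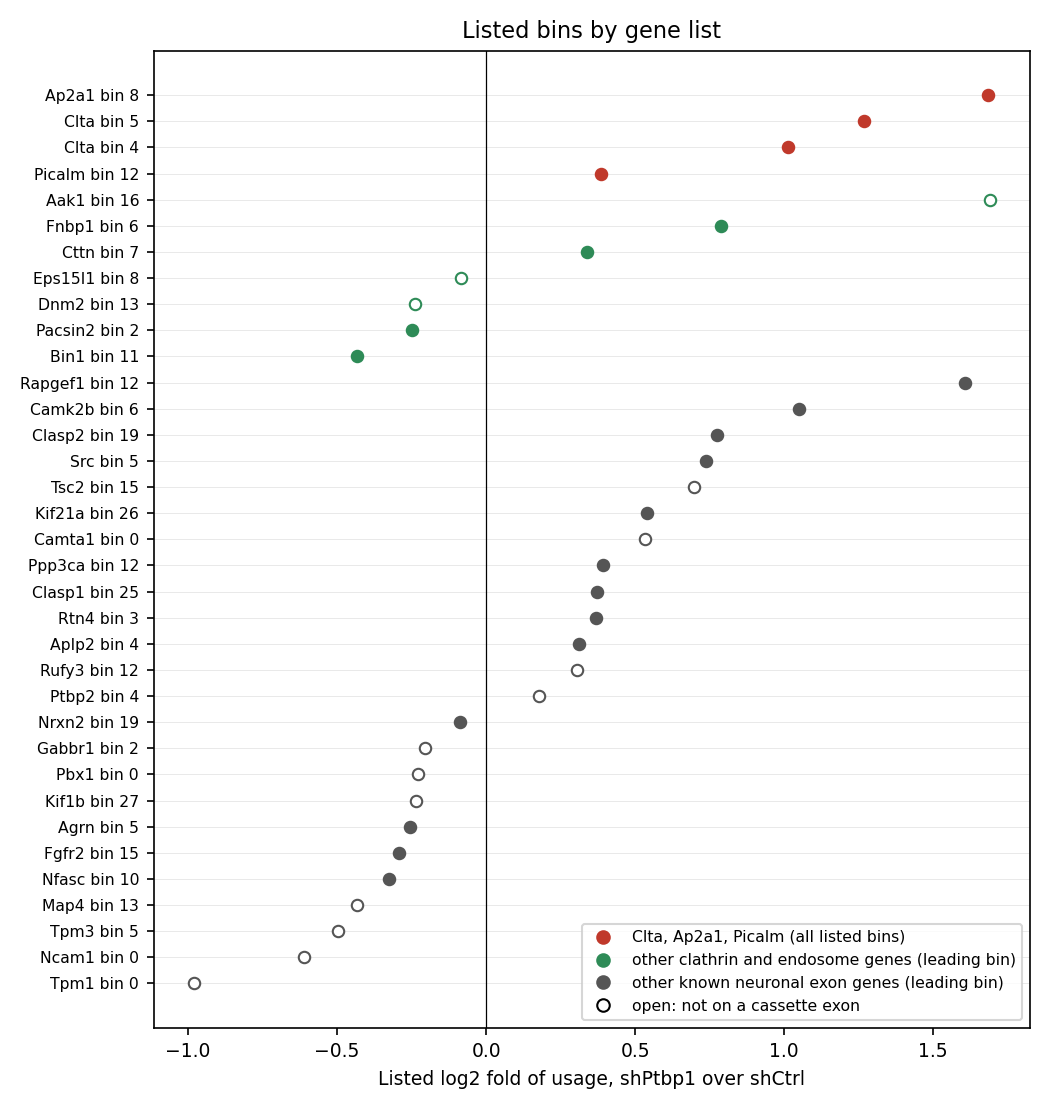
Listed log2 fold of usage (shPtbp1 over shCtrl) of each listed bin of Clta, Ap2a1 and Picalm (red) and of the leading bin of the other called genes of the clathrin and endosome lists (green) and the neuronal exon list (grey), for the genes reported here; filled points fell on cassette exons. The red points run from 0.38 to 1.68, while both other groups spread over both sides of 0.

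Position on a cassette exon was also counted over the rest of the table. In shPtbp1, 189 listed bins of other genes fell on cassette exons, 120 with higher and 69 with lower use, and their median log2 fold of usage was 0.27. The 721 bins on other exons gave 367 higher and 344 lower, with a median of 0.02. Among the bins on cassette exons, 18 reached a log2 fold of 1 or more, as did the bins of Ap2a1 and Clta, and 1 had -1 or less; among the bins on other exons these counts were 16 and 6. The exon length was a multiple of 3 in 75.1% of the 189 and in 39.3% of the 721. In shPnky, 19 bins fell on cassette exons, 4 higher and 15 lower, and Eea1 bin 15 was among the 216 on other exons.

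**Figure D4:**
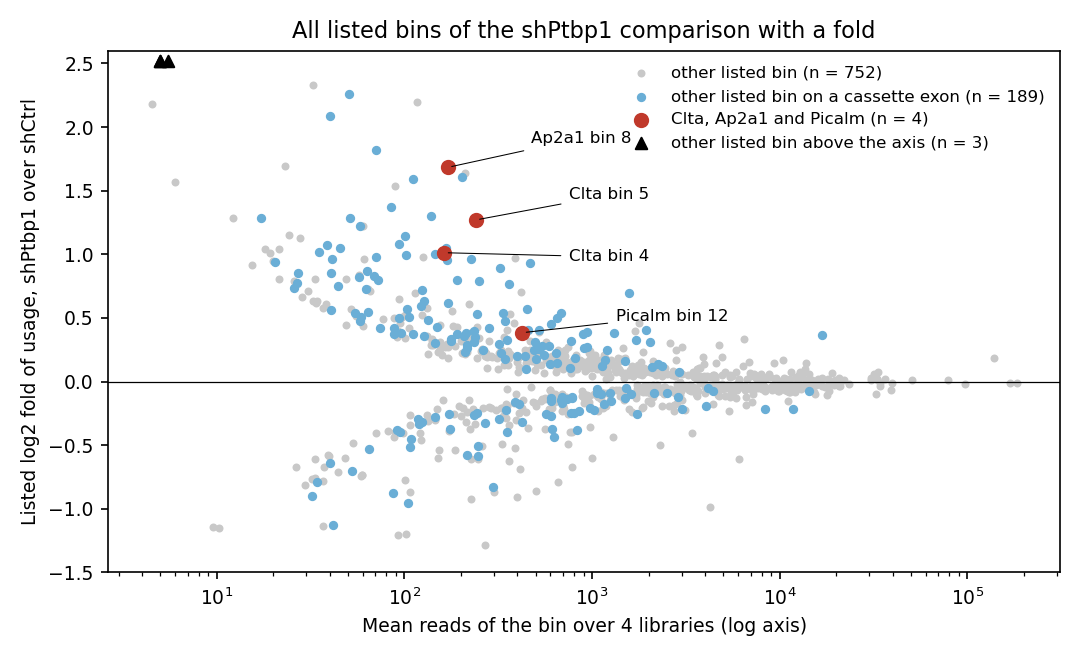
Listed log2 fold of usage against the mean reads of the bin (log axis) for all listed shPtbp1 bins with a fold, coloured by whether the assigned exon is a cassette exon; 3 bins above the axis are drawn as triangles at its top. The bins of Clta, Ap2a1 and Picalm (red) all lie above 0 at mean reads of 163 to 424.

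The bins with the most similar counts across the 4 libraries of a table were found by the Euclidean distance of log2 scaled counts, centred per bin. For Ap2a1 bin 8 these were Lrrfip1 bin 6 (distance 0.22; 19 and 13 reads to 159 and 149), Ptgs1 bin 8 (0.22) and Porcn bin 7 (0.34). For Clta bin 4 they were Camk2b bin 6 (0.08; 75 and 68 reads to 261 and 264), Phldb1 bin 9 (0.12) and Ahnak bin 2 (0.13). Those nearest to Picalm bin 12 were Nrxn2 bin 4 (0.05), Sept8 bin 9 (0.06) and U05342 bin 0 (0.06). Around Eea1 bin 15 the nearest bins reported here were farther away: Camta1 bin 15 (0.51) and Acot5 bin 2 (0.53). Acot5 bin 2 had few reads, 7 and 9 in shCtrl against 15 and 13 in shPnky. Its listed log2 fold of usage was -2.44, opposite in sign to that of Eea1, whereas that of Camta1 bin 15 was 0.38. Of the 6 bins nearest to Ap2a1 and Clta, 4 fell on cassette exons. These exons had 51 bases in Lrrfip1, 15 in Porcn, 45 in Camk2b and 141 in Phldb1. Among those nearest to Picalm, Nrxn2 bin 4 fell on one (72 bases), Sept8 bin 9 did not, and U05342 bin 0 could not be assigned. Neither of those given for Eea1 fell on a cassette exon.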

How the data were processed

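The 6 poly(A)-selected, strand-specific libraries were compared through 2 tables, which per the file headers hold DEXSeq output, a test of exon use within genes. The submitters' processing notes name mm9, TopHat2 2.0.10, Cuffdiff 2.1.1, Cufflinks and Cuffnorm, with no role. The authors deposited raw counts per bin and library, their mean (a signal column), p-values, log2 folds of fitted usage, and model scores (usage, dispersion, statistic). The last listed bins had an adjusted p of 0.00995 (Puf60 bin 7, shPtbp1) and 0.00995 (Ero1lb bin 15, shPnky). Bins past the threshold were not analysed here. Bin numbers came from row names, no number being read as 0, and numbers of tested bins from p and adjusted p.

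Counts were scaled to equal totals of listed counts, and log2 count changes taken between group means plus 0.5, without a test, since the same contrasts chose the genes. The median log2 count change of all listed shPtbp1 bins was then 0.13 (0.01 with median-of-ratios factors). edgeR 4.0.16 (R 4.3.3) gave TMM factors; Python 3.11.15 did the rest, tested on simulated data. Replicate pairs exceeded sampling noise (chi-square per degree of freedom 2.45 to 7.76), and each library counts once.

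Genes, lists and rules were chosen with earlier results of these data known. Named were all listed bins of the 4 genes, up to 6 called genes per list, direction and table by smallest adjusted p, Ptbp1, Ptbp2, and per gene the 3 bins with the nearest log2(scaled count + 1). Src and, as an example of scale, Vim were picked after seeing values. A few genes that these rules take are not reported here. Exons and sequences came from GENCODE M21 (GRCm38), matched by Entrez number. Alternatives concerned thresholds, scaling, pseudocount, a replicate block, omission of each library and, added after seeing the data, exon numbering.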

Additional observations from a re-analysis of the deposited data

How the results depend on the processing

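The 5 log2 count changes and the Clta share kept their direction under every alternative run. Leaving out 1 library at a time gave log2 count changes of 2.997 to 3.19 for Ap2a1 bin 8, 1.87 to 1.92 for Clta bin 4, 2.34 to 2.50 for Clta bin 5, 0.48 to 0.59 for Picalm bin 12 and 0.88 to 1.43 for Eea1 bin 15, and differences of -10.5 to -7.25 percentage points for the share of Clta bin 4. Taken over same-numbered libraries (replicate block), the changes were 3.10 (Ap2a1), 1.90 and 2.42 (Clta), 0.53 (Picalm) and 1.15 (Eea1), and the share difference was -8.88. The numbers do not appear to pair the libraries: deviations of same-numbered libraries correlated at 0.07 over 888 shPtbp1 bins and 0.03 over 243 shPnky bins.

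Log2 count changes moved by more than the replicate spread in these cases. Clta bin 4 had 1.85 without scaling, 1.77 with median-of-ratios factors, 1.79 with TMM and 1.83 with a pseudocount of 5. Picalm bin 12 had 0.41 with median-of-ratios factors and 0.43 with TMM, and Ap2a1 bin 8 had 2.94 with a pseudocount of 5. Counts of called bins and genes have no replicate spread, and those that moved most with the threshold follow. At an absolute log2 fold of at least 1, 3 of the 5 bins remained (those of Ap2a1 and Clta), with 1 gene of the clathrin and endosome lists and 5 of the neuronal exon list in shPtbp1, and 0 of the latter in shPnky. An adjusted p under 0.001 left 4 clathrin and endosome genes in shPtbp1 and 3 neuronal exon genes in shPnky. Of 67 alternative values for the counts of called bins and genes, the count changes and the share, 54 were not among the cases named here. The place of the 4 shPtbp1 bins on cassette exons depended on the exon numbering: of the 23 other numberings, 21 put at most 2 of the 4 there and 2 put 3. Depth limits Eea1 bin 15, with a mean of 60.8 reads.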
